A study of Mus musculus with 9 samples.

Results

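The interferon-stimulated genes are a set of 40 genes known to be switched on by interferons in mouse cells. They were followed here in 3 populations of activated hepatic stellate cells (aHSCs), the cells that lay down scar in injured liver. Members were all probes of the Illumina MouseWG-6 v2.0 array whose gene symbol, or else a listed synonym, was one of the 40. Of these genes, 36 had a probe (59 probes in all), among 30869 gene symbols on the array. RNA was measured on 9 arrays, 3 per group. All cells came from WT1GFP/+ mice of the C57/Bl6 strain, labelled male throughout although the study's methods name both sexes for culture work. In these mice green fluorescent protein (GFP) reports on the WT1 locus, and every group therefore carried the reporter allele. The WT1-high (GFP high) and WT1-intermediate (GFP low) cells were sorted from liver made fibrotic by repeated carbon tetrachloride injury. The WT1-negative (GFP negative) cells were sorted from stellate cells of uninjured liver after 7 days in culture, where contact with plastic activates them. WT1 status and origin in liver or in culture therefore coincided in any comparison with WT1-negative cells, and their parts in a difference cannot be told apart. The study's methods give young adult mice for the injury models.

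Interferons are cytokines that cells release on sensing foreign or misplaced nucleic acid. Type I interferons act through the receptor chains Ifnar1 and Ifnar2 and the kinases Jak1 and Tyk2, whose targets include Stat2. Stat2 and Irf9 are parts of a complex that binds the interferon-stimulated response element (ISRE) in promoters. Interferon gamma acts through Ifngr1, Ifngr2, Jak1 and Jak2, and its signal reaches promoters at the gamma-activated site (GAS). The genes switched on in this way sense viral RNA, degrade it, block its translation, tag proteins with Isg15 or attack the vacuoles in which pathogens live. In liver, stellate cells, macrophages, endothelial cells and hepatocytes can all respond to interferon, while interferon gamma is made chiefly by T and NK cells.

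Promoter sequence is shown because the genes that differed most between the groups included some with and some without a recognisable ISRE. RefSeq promoters (GRCm38.p6, from 250 bases before to 50 bases after the gene start) were at hand for 29 of the 40 genes. The ISRE core was searched on both strands as GAAA repeated with any 2 bases between the copies. It occurred in 14 of these 29 genes (48.3%), against 3.99% of all 27025 genes with a promoter in the table and 3.44% of all promoters. The GAS motif, searched as TTCNNNGAA, which reads the same on either strand, occurred in 8 of the 29 genes (27.6%), against 9.55% of all genes and 8.3% of promoters. Both motifs were found in 4 genes (Oas1a, Igtp, Bst2 and Ifitm3), and 2 of the 22 ISRE matches overlapped a GAS match. Most ISRE matches lay close to the gene start, with 17 of 22 within 200 bases upstream of it and 4 downstream.

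The promoters of Gbp2 and Ifit3, which were among the genes with the largest differences between groups, carried the ISRE core on the reverse strand. It is given in capitals within the strand of the gene, 5′ to 3′. Oasl2 had no match in this window, and its promoter is given for comparison.
Gbp2, chr3:142620413-142620712, + strand: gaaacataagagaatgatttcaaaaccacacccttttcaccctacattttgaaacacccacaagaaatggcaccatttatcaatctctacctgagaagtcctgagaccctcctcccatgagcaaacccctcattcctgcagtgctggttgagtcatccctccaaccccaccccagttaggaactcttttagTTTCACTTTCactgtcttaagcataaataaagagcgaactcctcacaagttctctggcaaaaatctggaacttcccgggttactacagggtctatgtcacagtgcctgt
Ifit3, chr19:34583279-34583578, + strand: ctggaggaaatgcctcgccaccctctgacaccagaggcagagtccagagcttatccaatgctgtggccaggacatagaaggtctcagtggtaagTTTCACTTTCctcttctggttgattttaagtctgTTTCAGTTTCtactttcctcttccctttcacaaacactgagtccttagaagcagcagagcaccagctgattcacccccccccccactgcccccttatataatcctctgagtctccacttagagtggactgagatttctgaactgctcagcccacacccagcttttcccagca
Oasl2, chr5:114896684-114896983, + strand: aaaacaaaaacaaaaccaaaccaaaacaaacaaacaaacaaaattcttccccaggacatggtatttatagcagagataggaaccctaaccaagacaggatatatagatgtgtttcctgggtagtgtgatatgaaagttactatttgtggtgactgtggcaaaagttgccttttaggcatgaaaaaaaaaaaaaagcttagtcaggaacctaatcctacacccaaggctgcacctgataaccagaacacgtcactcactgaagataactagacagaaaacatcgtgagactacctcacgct
The Gbp2 match began 59 bases upstream of the gene start, and the Ifit3 matches began 156 and 122 bases upstream. Gbp3, Isg15 and Oas1a held overlapping copies of the core, shown by windows of 30 bases in which 1 copy is in capitals.
Gbp3, chr3:142559989-142560018, + strand: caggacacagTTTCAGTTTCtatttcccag
Isg15, chr4:156200871-156200900, - strand: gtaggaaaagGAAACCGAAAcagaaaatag
Oas1a, chr5:120907520-120907549, - strand: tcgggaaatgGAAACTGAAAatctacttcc
The counts of genes called are given for both kinds of promoter. Among tested genes with an ISRE core, 6 of 11 were higher in WT1-high cells than in culture. Of 12 tested genes whose promoter window held none, 8 were higher. For WT1-intermediate cells the counts were 8 of 11 with the core and 8 of 12 without. The counts of both populations include Ifih1 (with the core) and Isg20 (without), which passed the detection filter only through the groups from liver. Of all 20573 probes tested, 26.5% were higher than in culture for the former population and 24.4% for the latter. Irf7, Ifi47, Oasl1, Oasl2 and Isg20, all among the largest differences below, had no ISRE match in this window, which says only that these letters are not in it.

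**Figure D1:**
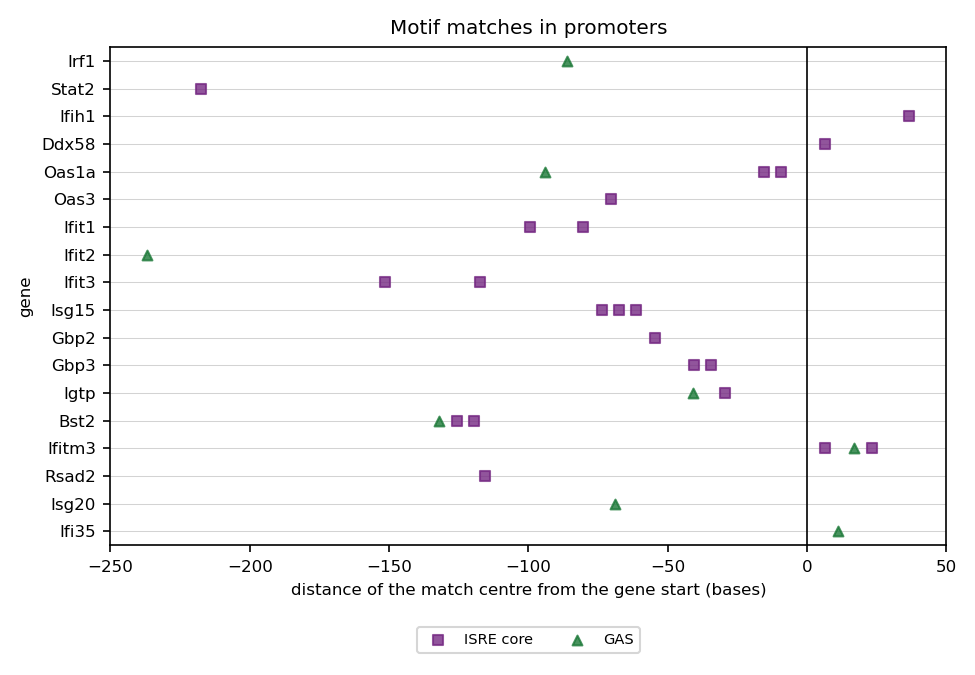
Positions of ISRE core (squares) and GAS (triangles) matches along the promoter windows of the genes that hold them, as the distance in bases of each match's centre from the gene start. Matches cluster upstream of the start, and Ifih1, Ddx58 and Ifitm3 (ISRE) and Ifitm3 and Ifi35 (GAS) have matches downstream of it.

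Between 17253 and 19774 probes per array (38.1% to 43.67% of 45281 gene probes) were detected above the negative controls, and the mean signal lay between 147.5 and 288.9. Values below are log2 levels after normalization, on a scale in which background lies slightly above 4, and levels of different probes are not compared. A gene with several probes is given by the tested probe with the highest mean. A probe was tested if it was detected on at least 3 arrays, which applied to 31 of the 36 genes (49 of 59 probes). Oas3, Ifit1, Mx1, Iigp1 and Ifi44 had no probe that passed, so their transcripts have no test here. Isg15, Cmpk2, Parp9 and Xaf1 had no probe under their own symbol. A gene is termed higher or lower where the adjusted p of limma's moderated test, corrected over all 20573 probes tested, was under 0.05. No probe bore the symbol Wt1, so its transcript was not analysed here.

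The label of stellate cells was checked against 16 marker genes with a probe. Of these, Lhx2, Gfap and Vipr1 were detected on no array, Lrat was not detected in WT1-intermediate or WT1-negative cells, Ngfr was not detected in WT1-intermediate cells, and Hand2 and Colec11 were not detected in WT1-negative cells. The 12 tested markers summed to 17330 to 18040 on WT1-high, 17060 to 22740 on WT1-intermediate and 12300 to 15390 on WT1-negative arrays. Markers of other cells were present and differed between the groups. The summed signal of 11 mesothelial markers was 36050 to 40650 on WT1-high arrays, 21110 to 29100 on WT1-intermediate arrays and 399.9 to 498.3 on WT1-negative arrays. The sum of 22 tested macrophage markers was 7902 to 12790, 22910 to 35890 and 57710 to 62830 in the same order, and that of 5 hepatocyte markers was 378.2 to 1896, 482.3 to 1485 and 115.1 to 179.3, with Alb not detected in any group. The 6 tested neutrophil markers summed to 1085 to 2304, 1788 to 2816 and 336 to 588.6. That of 10 T and NK cell markers was 1717 to 2941, 2166 to 3279 and 241.8 to 265.4, and 9 of the 14 with a probe, Cd3d, Cd3e and Nkg7 among them, were not detected in WT1-negative cells. Of the 7 plasmacytoid dendritic cell markers, 6 were not detected in WT1-negative cells, Siglech among them, and the sums were 701.7 to 1067, 954.2 to 1381 and 116.3 to 122 in the same order. The 14 endothelial markers summed to 1601 to 2036, 2942 to 3300 and 6092 to 7088. In sorted bulk samples such as these, fewer expressing cells and less RNA per cell cannot be told apart, and the part of other cell types in the results below was not tested.

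Interferon-stimulated genes were mostly more abundant in the cells taken from fibrotic liver. Of 31 genes tested, 16 were higher and 1 was lower in WT1-high cells than in WT1-negative ones, and 19 were higher and 0 lower in WT1-intermediate cells. In the latter comparison 19 genes had an unadjusted p under 0.05, all of them higher. Of all 20573 probes tested, 12871 had such a p there, in either direction. Among all probes, 26.5% were higher and 33.1% lower in the former comparison (59.6% called in all), and 24.4% were higher and 33.6% lower in the latter (58.0% in all). The count of higher members was therefore above the background in both comparisons, and that of lower members below it. The 31 genes had a median difference of 0.63 (WT1-high) and 0.97 (WT1-intermediate) on the log2 scale, against -0.10 and -0.13 over all probes tested. The 3 WT1-high arrays lay wholly above the 3 WT1-negative arrays for 18 genes and wholly below for 1, where 30.7% of all probes lay above and 37.7% below (68.4% apart in all). The WT1-intermediate arrays lay wholly above for 17 genes and below for 0, where 28.0% of all probes lay above and 37.5% below (65.5% in all). Both comparisons use the same WT1-negative arrays, so their values are given side by side and are not independent of each other. Isg20 and Ifih1 passed the detection filter only through the groups from liver. Among the 26 genes detected on all 9 arrays, 13 and 16 were higher and 1 and 0 lower, where 26.4% and 24.1% of all such probes were higher and 36.1% and 36.4% lower.

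**Figure D2:**
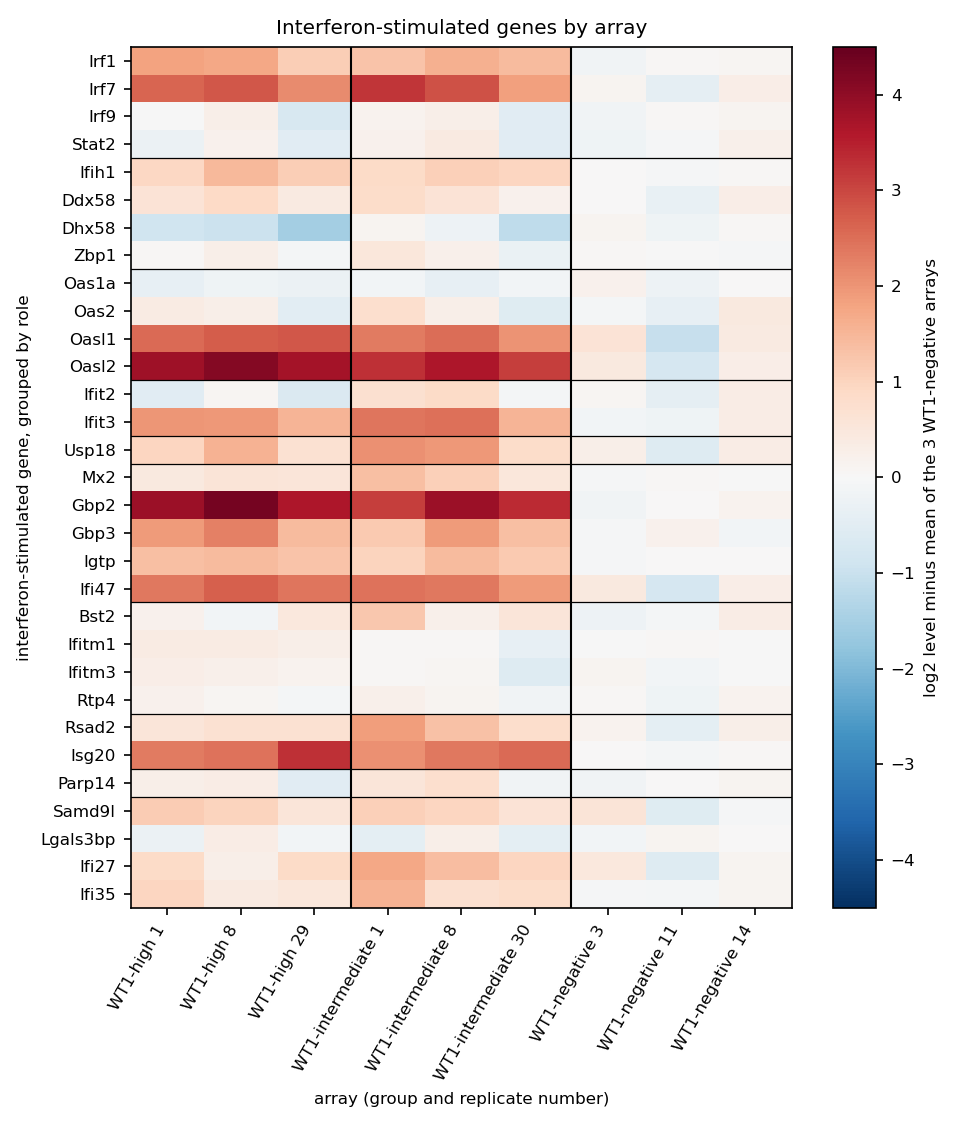
Log2 level of the 31 tested genes on each of the 9 arrays, minus the mean of the 3 WT1-negative arrays, with genes grouped by role between horizontal lines. Gbp2, Oasl2, Isg20, Oasl1, Irf7 and Ifi47 are dark red in all 6 arrays of cells from liver, and Dhx58 is the row furthest below 0 in the 3 WT1-high arrays.

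All 5 tested interferon-inducible GTPases were higher in both populations from liver, where 26.5% and 24.4% of all probes were higher. Of these GTPases, the guanylate-binding proteins and immunity-related GTPases attack the membranes of vacuoles that hold pathogens. Gbp2, a guanylate-binding protein, gave 12.05, 12.49 and 11.84 on WT1-high arrays 1, 8 and 29, and 11.33, 12.05 and 11.57 on WT1-intermediate arrays 1, 8 and 30. On WT1-negative arrays 3, 11 and 14 it gave 8.03, 8.21 and 8.37. All 6 arrays of cells from liver lay above every WT1-negative array. The difference was 3.93 ± 0.22 (SE; 15.2-fold, adjusted p = 9.1e-08, limma) for WT1-high and 3.45 ± 0.22 (10.9-fold, adjusted p = 3.17e-07) for WT1-intermediate cells. All 3 Gbp2 probes were higher in both, with the smallest difference of a probe at 0.73 and 0.71.

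Ifi47, an immunity-related GTPase, gave 8.99, 9.30 and 9.01 on the WT1-high arrays, 9.05, 8.97 and 8.52 on the WT1-intermediate arrays, and 7.05, 5.86 and 6.92 on the WT1-negative arrays. Neither population from liver overlapped the WT1-negative arrays, of which array 11 was the lowest. The differences were 2.49 ± 0.28 (SE, adjusted p = 1.9e-05, limma) and 2.24 ± 0.28 (adjusted p = 5.03e-05). Smaller differences were called for Gbp3 (1.87 and 1.48, in the same order), for Igtp, another immunity-related GTPase (1.36 and 1.19), and for Mx2, a dynamin-like GTPase (0.53 and 0.98), whose WT1-high call was lost in 10 of 18 alternatives and whose difference there was 0.19 without background correction.

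Among the OAS family, Oasl1 and Oasl2 were higher, and Oas1a and Oas2 did not pass the test. Synthetases of this family make the oligoadenylates that activate RNase L, and mouse Oasl1 restrains translation of Irf7. Oasl2 gave 11.04, 11.35 and 10.97 on WT1-high arrays, 10.51, 10.89 and 10.35 on WT1-intermediate arrays, and 7.67, 6.49 and 7.53 on WT1-negative arrays. The groups did not overlap at any point. The differences from WT1-negative cells were 3.89 ± 0.28 (SE; 14.8-fold, adjusted p = 6.62e-07, limma) and 3.35 ± 0.28 (10.2-fold, adjusted p = 2.47e-06).

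Oasl1 gave 8.54, 8.74 and 8.79 on WT1-high arrays, 8.33, 8.53 and 8.04 on WT1-intermediate arrays, and 6.63, 4.97 and 6.41 on WT1-negative arrays. WT1-negative array 11 lay more than 1 log2 unit below the other 2 arrays of its group, and the groups still did not overlap. The differences were 2.68 ± 0.35 (SE, adjusted p = 5.63e-05, limma) and 2.29 ± 0.35 (adjusted p = 0.0002). Of its 3 probes, 1 was called higher in WT1-high cells alone (0.81), with 0.40 (adjusted p = 0.129, limma) in WT1-intermediate cells. Oas2 was close to level, with differences of 0.05 (95% CI -0.69 to 0.78) and 0.16 (-0.58 to 0.90). Oas1a, detected on 3 of the 9 arrays and on none of the WT1-high arrays, differed by -0.29 (95% CI -0.63 to 0.06) and -0.21 (-0.55 to 0.13).

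Among the 4 transcription factors, Irf1 and Irf7 were higher and Irf9 and Stat2 were not called. Irf7, the factor that drives the interferon alpha genes and is itself interferon-induced, gave 7.59, 7.74 and 7.07 on WT1-high arrays, 8.16, 7.82 and 6.79 on WT1-intermediate arrays, and 5.07, 4.54 and 5.27 on WT1-negative arrays. No WT1-negative array reached the lowest array of cells from liver. The differences were 2.51 ± 0.33 (SE, adjusted p = 5.74e-05, limma) and 2.63 ± 0.33 (adjusted p = 4.68e-05). Irf1, a factor induced through GAS sites, was higher by 1.56 and 1.43, and by 0.57 to 1.56 and 0.69 to 1.43 over its 5 probes, of which 1 did not pass in WT1-high cells.

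Stat2 and Irf9, parts of the complex that binds the ISRE, did not pass the test. Stat2 differed by -0.18 (95% CI -0.73 to 0.36) and 0.03 (-0.52 to 0.57). Irf9 differed by -0.16 (95% CI -0.75 to 0.42) and -0.02 (-0.60 to 0.56) by the probe given. Its other probe was lower in both, by -1.08 (adjusted p = 0.00438, limma) and -0.72 (adjusted p = 0.0339), so the probes of this gene disagree.

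By the probe given for each gene, the sensors of RNA and DNA held the only member called lower than in culture, in WT1-high cells alone. Dhx58 (LGP2), which tunes the signal of the other RNA helicases, gave 6.23, 6.16 and 5.61 on WT1-high arrays, 7.25, 6.92 and 5.98 on WT1-intermediate arrays, and 7.27, 6.94 and 7.20 on WT1-negative arrays. The WT1-high arrays lay below all WT1-negative arrays, and the WT1-intermediate arrays spread over both. The difference was -1.14 ± 0.29 (SE, adjusted p = 0.00573, limma) in WT1-high cells and -0.42 ± 0.29 (adjusted p = 0.234) in WT1-intermediate cells. Its other probe was likewise lower in WT1-high cells, by -1.23.

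Ifih1 (MDA5), a sensor of long double-stranded RNA, was not detected in WT1-negative cells. Its measured means were 5.39, 5.19 and 4.22, and against the background limit the WT1-high value was at least 1.72-fold and the WT1-intermediate value at least 1.5-fold higher, and it likewise entered the test only through the groups from liver. Ddx58 (RIG-I), which senses short RNA ends, was higher by 0.63 (adjusted p = 0.0267, limma) and 0.55 (adjusted p = 0.0481), calls lost in 5 and 11 of 18 alternatives, with the latter down to 0.25 without background correction. Zbp1, a sensor of Z-form nucleic acid, differed by 0.07 (95% CI -0.37 to 0.51) and 0.15 (-0.29 to 0.59).

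Among the antiviral enzymes, Isg20, an exonuclease that degrades RNA, gave 6.69, 6.80 and 7.65 on WT1-high arrays and 6.39, 6.72 and 6.90 on WT1-intermediate arrays. On the WT1-negative arrays it gave 4.37, 4.26 and 4.41 and was not detected. The cells from liver thus all lay well above the culture. Against the background limit it was at least 5.43-fold and at least 4.19-fold higher, and as it was detected in cells from liver alone it passed the detection filter through those groups, so no test is given. Rsad2 (viperin), which makes a chain-terminating nucleotide, was higher in WT1-intermediate cells (1.33, adjusted p = 0.00115, limma) and missed the threshold in WT1-high cells (0.63, adjusted p = 0.0552).

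Of the IFIT family, whose members bind viral RNA, Ifit3 gave 8.98, 8.94 and 8.51 on WT1-high arrays, 9.41, 9.48 and 8.51 on WT1-intermediate arrays, and 6.86, 6.78 and 7.33 on WT1-negative arrays. All arrays from liver were above the culture. The differences were 1.82 ± 0.26 (SE, adjusted p = 0.000119, limma) and 2.14 ± 0.26 (adjusted p = 4.14e-05). The probes of Ifit2 disagreed. The probe given showed -0.36 and 0.51 and was called in neither comparison, and the other was higher by 0.80 (adjusted p = 0.0362, limma) and 1.90 (adjusted p = 0.000249).

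Usp18, the protease that removes Isg15 from proteins, was higher by 1.07 (adjusted p = 0.0223, limma) and 1.62 (adjusted p = 0.00234). Its other probe gave 0.11 and 0.33 and was not called. Isg15 itself had no probe under its symbol. A probe that RefSeq's Entrez gene identifiers assign to Isg15 lay outside the rule and was higher by 1.17 (adjusted p = 0.00161, limma) and 1.63 (adjusted p = 0.00017). Likewise outside the rule, a probe listed under the older symbol Tyki, now Cmpk2, a mitochondrial nucleotide kinase, was higher by 0.73 and 1.38. One listed under BC003281, now Parp9, an ADP-ribosyltransferase family member, differed by -0.05 and 0.31 and was not called.

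The 4 membrane antiviral proteins gave a single call by the probes given. Ifitm1 and Ifitm3, which hinder viral entry, and Rtp4 were called in neither comparison, and Bst2 (tetherin), which holds budding virus at the cell surface, was higher in WT1-intermediate cells (0.67, adjusted p = 0.0477, limma), a call lost in 11 of 18 alternatives, and not called in WT1-high cells (0.18), with no call between these populations (-0.48, adjusted p = 0.387). The 4 probes of Ifitm1 disagreed. The probe given lay at 12.25 or above on all 9 arrays, with differences of 0.34 (95% CI 0.01 to 0.67, adjusted p = 0.0687, limma) and -0.09 (-0.42 to 0.24). Another, detected on all 6 arrays from liver and on 0 of the WT1-negative arrays, passed the detection filter only through them and exceeded the background limit at least 2.19-fold and 3.23-fold. A further probe was also called higher (1.61 and 1.73), although WT1-negative array 11 stood at 8.64 and the others of that group at 6.64 and 6.59. The last probe was not called.

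The remaining members tested gave smaller differences or no call. Samd9l, an antiviral repressor of translation, was higher by 0.90 and 0.89, and Ifi35 by 0.62 and 1.04. Ifi27 was higher in WT1-intermediate cells (1.37, adjusted p = 0.00175, limma) and missed the threshold in WT1-high cells (0.67, adjusted p = 0.0639). Parp14 (0.03, 95% CI -0.57 to 0.63, and 0.38, -0.22 to 0.97) and the secreted glycoprotein Lgals3bp (-0.01, -0.48 to 0.46, and -0.20, -0.68 to 0.27) were called in neither.

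**Figure D3:**
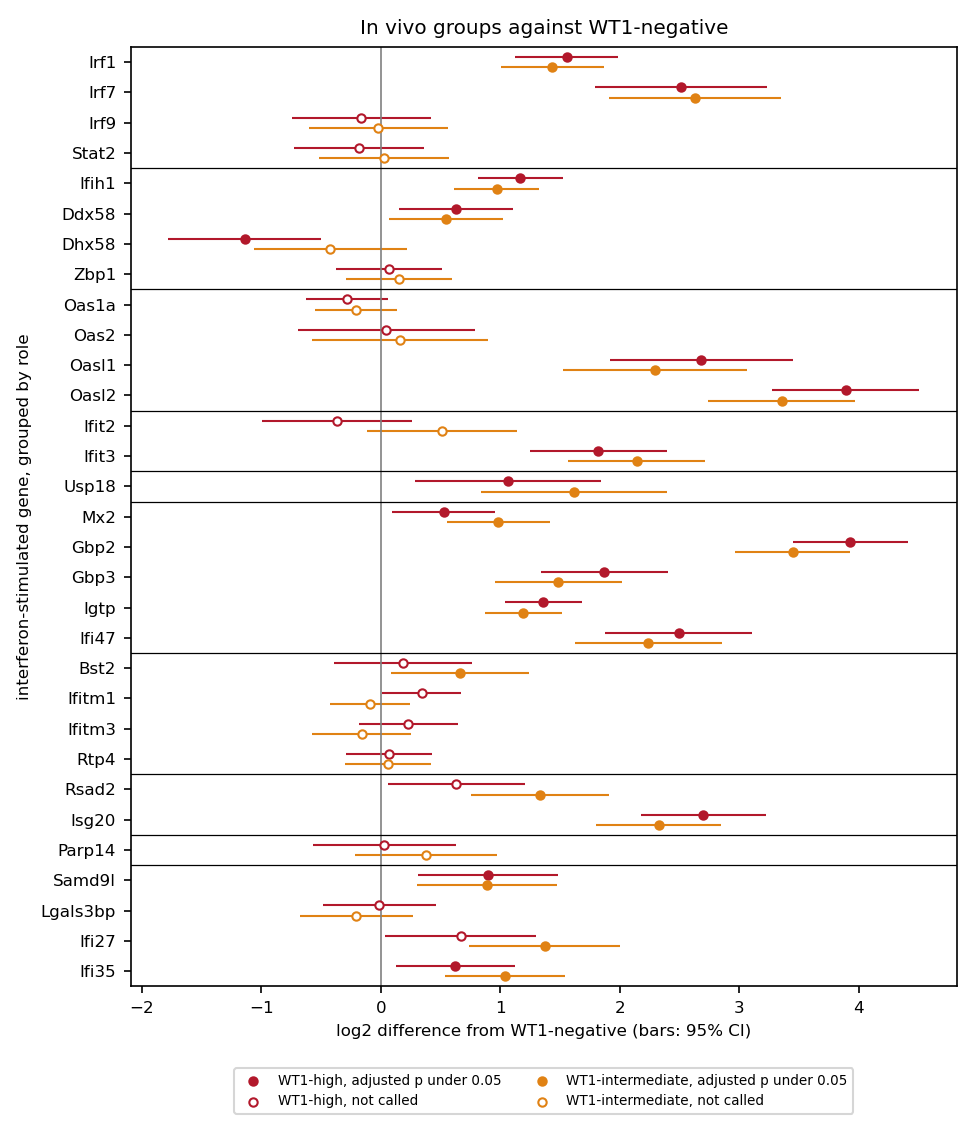
Log2 difference of each tested gene from WT1-negative cells for WT1-high (red) and WT1-intermediate (orange) cells, with 95% confidence intervals from the limma fit and filled points where the adjusted p was under 0.05. Filled points lie to the right of 0 for all genes except Dhx58 in WT1-high cells, and the red point lies to the right of the orange one for Gbp2 and Oasl2 but to the left for Ifit2, Rsad2 and Ifi27.

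The populations sorted from fibrotic liver were then set against each other, which compares the higher with the lower GFP gate. These gates also differed in the markers of other cells given above, so the comparison does not isolate the WT1 level. None of the 31 genes was called higher or lower in WT1-high relative to WT1-intermediate cells by limma, where 3.55% of all probes were called (0.904% higher and 2.64% lower). An unadjusted p under 0.05 was found for 6 of the 31, and for 3545 of all 20573 probes tested. None of the 49 member probes was called either. The estimates spread to both sides, with 15 positive and 16 negative, a median of -0.08 against 0.05 over all probes, and a range from -0.88 for Ifit2 to 0.54 for Oasl2. The groups did not overlap for Oasl1, Oasl2, Ifitm1 and Ifitm3, which lay above, and for Rsad2 and Ifi27, which lay below. Over all probes, 11.5% lay wholly above and 8.60% wholly below (20.1% in all).

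Arrays of the same number were taken as the same animal, with WT1-high array 29 matched to WT1-intermediate array 30. Between such arrays, 10 of the 31 genes (32.3%) were lower in WT1-high cells in all 3 pairs, against 18.3% of all probes, and 10 were higher in all 3 pairs, against 25.5%. The genes that were lower in every pair were Irf9, Dhx58, Ifit2, Ifit3, Usp18, Bst2, Rsad2, Parp14, Ifi27 and Ifi35. By the probe given for each gene, those that were higher in every pair were Ifih1, Oasl1, Oasl2, Gbp2, Gbp3, Igtp, Ifitm1, Ifitm3, Isg20 and Lgals3bp. The role groups were not uniform, since of the GTPases Mx2 was lower in 2 of the 3 pairs and Ifi47 was higher in 2. Other probes of a gene could run the other way. Another probe of Ifitm1 was lower in WT1-high cells in every pair (difference -0.56, adjusted p = 0.21, limma) where the probe given was higher (0.43), and the other probe of Ifit3 (0.15 against -0.32) and 3 of the 5 of Irf1 (-0.18 to -0.12 against 0.12) also differed in sign, all without a call.

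Ifit2 had the largest of these differences. The probe given showed 6.32, 6.94 and 6.19 on WT1-high arrays 1, 8 and 29, against 7.58, 7.72 and 6.77 on WT1-intermediate arrays 1, 8 and 30. Each WT1-high array was below its partner, although array 8 of WT1-high lay above array 30 of WT1-intermediate cells. The difference was -0.88 ± 0.29 (SE, unadjusted p = 0.0106, adjusted p = 0.134, limma). With the replicate numbers as random blocks, where arrays 29 and 30 stand apart, the difference was -0.92 (adjusted p = 0.0344, limma). With arrays 29 and 30 taken as 1 animal and the animals as fixed blocks, the adjusted p values were 0.0288 for Ifit2 and 0.0252 for Dhx58, the only 2 members then called, and both were lower in WT1-high cells. With fixed blocks by the numbers alone, where arrays 29 and 30 stand apart and do not inform the difference, Dhx58 was the only member called (-0.89, adjusted p = 0.0378).

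Leaving out WT1-intermediate array 30 likewise brought Ifit2 (-1.18, adjusted p = 0.0372), Dhx58 (-1.10, adjusted p = 0.0233) and Mx2 (-0.71, adjusted p = 0.038) past the threshold in limma, so that 3 members were then lower. No setting called a member higher. Macrophage markers moved the same way as these genes, with 15 of 22 lower in WT1-high cells and the sums given above, as did 5 of 14 endothelial markers, and their part in these differences was not tested.

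**Figure D4:**
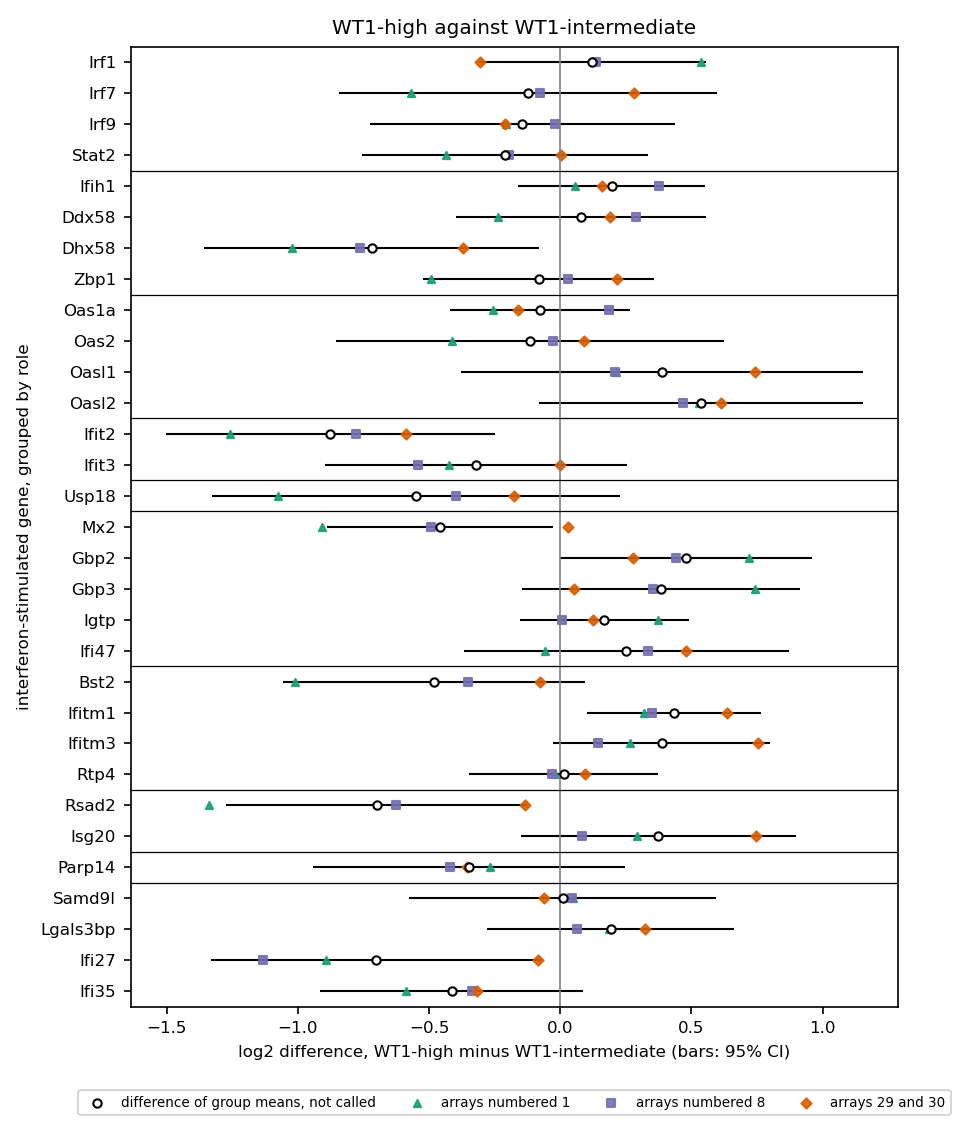
Log2 difference between WT1-high and WT1-intermediate cells for each tested gene, as the difference of group means with its 95% confidence interval (open circles, none called) and as the differences between arrays of the same animal number (coloured symbols, with arrays 29 and 30 matched). Ifit2, Dhx58 and Rsad2 lie to the left of 0 in all 3 pairs, and Oasl2 and Gbp2 lie to the right in all 3.

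The members varied together from animal to animal. On WT1-intermediate array 30, 29 of 31 genes lay below the mean of their group, with a median deviation of -0.32 on the log2 scale, and 21 were the lowest of the group. On WT1-high array 29, 24 genes lay below the mean, with a median deviation of -0.15. Arrays numbered 8 stood on the other side in both groups, with 26 and 27 of 31 genes above the mean and median deviations of 0.18 and 0.17. Over all probes, the median deviation of every array was between -0.02 and 0.01. Arrays 29 and 30 had the fewest probes detected of the arrays from liver (17253 and 17581). Macrophage markers deviated by a median of -0.12 on array 29 and -0.34 on array 30, T and NK cell markers by 0.40 and 0.30, and hepatocyte markers by 0.71 and 1.02, and the part of these in the pattern was not tested.

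The spread within groups was accordingly wider for these genes. The median SD over the 3 arrays was 0.30 (WT1-high), 0.40 (WT1-intermediate) and 0.18 (WT1-negative), against 0.20, 0.23 and 0.16 over all probes. Irf7, Usp18, Oas2 and Dhx58 spread furthest among WT1-intermediate arrays, with SDs of 0.71, 0.67, 0.67 and 0.66. In culture, WT1-negative array 11 was the lowest of its group for 19 of 31 genes, and was 1.04, 0.75 and 0.74 below the group mean for Oasl1, Ifi47 and Oasl2.

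**Figure D5:**
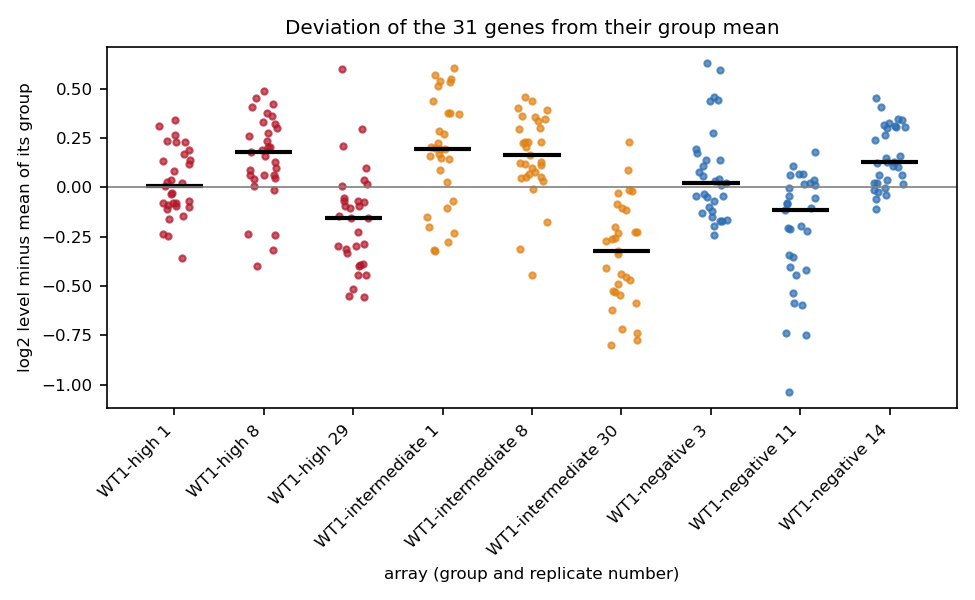
Log2 level of each of the 31 genes minus the mean of its group, by array, with 1 point per gene and a black bar at the median. The bars of WT1-high 29 and WT1-intermediate 30 lie at -0.15 and -0.32, and those of both arrays numbered 8 lie above 0.

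The genes that make, carry and restrain the signal gave a mixed picture. Of 18 interferon genes listed, 15 had a probe and 4 were tested. Of these 4, Ifng alone was higher in cells from liver. It was detected on all 6 of their arrays and on no WT1-negative array, at means of 5.82, 5.95 and 4.28, and exceeded the background limit at least 2.32-fold and 2.55-fold, having passed the detection filter through these groups alone. The T and NK cell markers moved the same way, with the sums given above, and their part in the Ifng signal was not tested. Ifnb1 was detected on a single array, of WT1-intermediate cells, and most interferon alpha genes on none. In WT1-intermediate cells Ifna1, which was not detected there, was at least 1.20-fold lower than in culture, and Ifna6 was lower (-0.61). Ifnab was lower in WT1-high cells (-0.56).

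Among the tested genes for receptors and their kinases, 3 were higher in WT1-high cells and 5 in WT1-intermediate cells than in culture, and 1 was lower in WT1-high cells. Jak1, the kinase shared by both kinds of receptor, was higher by 2.80 (adjusted p = 3.82e-07, limma) and 3.08 (adjusted p = 2.42e-07). Jak2 was higher by 1.28 and 0.88, and Ifnar2 by 1.11 and 0.94. Tyk2 was lower in WT1-high cells (-0.79). Ifngr2, a chain of the interferon gamma receptor, was lower in WT1-high cells than in their WT1-intermediate counterparts, by -1.46 (adjusted p = 0.00864, limma) and was the only receptor or kinase gene tested to differ between the populations from liver. Its level in WT1-high cells was close to that in culture (-0.05, adjusted p = 0.875).

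The genes of nucleic acid sensing that feed interferon production were more often lower than higher, with 5 of 9 tested genes lower and 2 higher in each comparison with WT1-negative cells, where 33.1% and 33.6% of all probes were lower and 26.5% and 24.4% higher. Mavs, the adaptor of the RNA helicases, was lower by -1.67 and -1.66, and the kinases Tbk1 (-0.81 and -0.64) and Ikbke (-1.70 and -0.98) were lower too. Tlr7, an endosomal RNA receptor known from macrophages and plasmacytoid dendritic cells, was lower by -2.70 and -1.52, and differed between the populations from liver, with less in WT1-high cells (-1.19, adjusted p = 0.0296, limma). Traf3 was higher in both by 0.90 and 0.91. Of 9 negative regulators, Socs3 was higher by 1.34 and 1.76 and Pias1 lower by -0.91 and -0.80, Ptpn6 was lower in WT1-high cells (-1.57) and Trex1 higher in WT1-intermediate cells (0.59).

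Other interferon-induced genes, outside the set of 40, were called in both directions. Of 29 tested, 10 were higher and 8 lower in WT1-high cells than in culture, and 10 were higher and 6 lower in WT1-intermediate cells, with medians of -0.10 and 0.23. These counts lay near the shares over all probes given above (26.5% and 24.4% higher, 33.1% and 33.6% lower). The higher ones included the DNA-binding proteins Ifi205 (4.65 and 3.80), Ifi203 and Ifi204, and the T cell attractants Cxcl10 (2.41 and 2.40) and Cxcl9 (2.00 and 3.03). Ifi203 and Ifi204 were not detected in WT1-negative cells, passed the detection filter through the groups from liver, and were at least 3.29-fold and 3.78-fold higher in WT1-high cells. The lower ones included the kinase Eif2ak2 (-0.99 and -0.98), which halts translation, and the restriction factor Apobec3 (-0.90 and -1.14). Slfn2 was the only gene of this list that differed between the populations from liver, and was lower in WT1-high cells (-1.32, adjusted p = 0.0145, limma). Of the 4 other interferon regulatory factors, Irf8, a factor of macrophages and dendritic cells, was higher in WT1-intermediate cells (1.00), and Irf2, Irf3 and Irf5 were called in neither comparison.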

How the data were processed

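Expression was measured on 9 arrays. The authors deposited 1 intensity per probe on a linear scale, neither background corrected nor normalized, with a deposited detection p-value from the array's negative control probes. A joined table repeated these intensities (largest difference 0) and was left aside. A WT1-intermediate column that bore the number 29 was taken as replicate 30, the only array of that group left.

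Intensities were corrected on 936 negative controls, quantile normalized and put on a log2 scale with an offset of 16 (neqc, limma 3.58.1, R 4.3.3), after the study's outline. Only probes detected (p under 0.05) by 3 or more arrays were tested, a filter the study does not state. The linear model had 3 group levels and used the 9 arrays together (residual degrees of freedom 6, prior 5.19), and limma's moderated two-sided test was adjusted by Benjamini-Hochberg over all probes. Where no array of the dimmer group detected a probe, the fold was taken over the background limit there and reads "at least". Precision is limited by having 3 arrays per group, and p-values measure only the spread between these samples. The steps were tested on simulated data with large changes in probes well above background. Smaller changes and probes near background were not covered by that test. Promoters were searched with Python 3.11.15.

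The members and all gene lists were chosen with earlier results of these data known. All 40 genes were to be accounted for, by the tested probe with the highest mean, and other probes were named where their call differed, or their direction for members named in detail. Values on every array were given for members called against WT1-negative cells whose groups did not overlap and differed by at least 2 on the log2 scale, and for Dhx58 and Ifit2, chosen after their values were seen.

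The study states 3 animals for the in vivo arrays. Deviations from the group means correlated across all probes by 0.35 for arrays 1, 0.34 for arrays 8 and 0.47 for arrays 29 and 30, against -0.39 to 0.03 for the other 6 combinations, so the arrays were treated as paired in the alternatives. Over the 31 members the same correlations were 0.45, 0.74 and 0.54. Probes share arrays, so these are descriptions without a test. One item of the pathway lists is not reported here.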

Additional observations from a re-analysis of the deposited data

How the results depend on the processing

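No member called in the reported fit changed direction under any alternative run. Of the calls against WT1-negative cells, 12 of 17 for WT1-high and 16 of 19 for WT1-intermediate cells held in every alternative, and those of Bst2, Ddx58, Ifi35, Mx2, Samd9l and Usp18 were lost in at least 1, in 10 of 18 for Mx2 and 8 of 18 for Ifi35 (WT1-high) and in 11 of 18 for Bst2 and Ddx58 (WT1-intermediate). The count of members lower in WT1-high relative to WT1-intermediate cells was 0, and became 1 with a fixed replicate block, 1 with a random replicate block (consensus correlation 0.378) and 2 with a fixed replicate block that took 29 and 30 as 1 animal. With the random block, Mx2 in WT1-high (adjusted p = 0.0635, limma) and Ddx58 in WT1-intermediate cells (adjusted p = 0.0568) were no longer called against WT1-negative cells. The count of members lower in WT1-high than in WT1-negative cells was 1, and became 2 with array weights, Oas1a being added (adjusted p = 0.0413). Rsad2, Ifi27 and Ifitm1 in WT1-high cells passed the threshold in some alternatives. The cause of these changes was not tested. Leaving out 1 array at a time, the former count ran from 0 to 3 (3 without WT1-intermediate array 30), the count higher in WT1-high than in WT1-negative cells from 11 to 18, and that for WT1-intermediate cells from 16 to 19. With cyclic loess the median of all probes moved to 0.01 and -0.01 against WT1-negative cells, and that of the members from 0.63 and 0.97 to 0.71 and 1.10. Without background correction the members' medians were 0.41 and 0.60, and with the larger offset 0.51 and 0.63. The members' median difference between the populations from liver ran from -0.12 to 0.09 when 1 array at a time was left out. Probes near background, such as those of Rtp4 and Oas1a, could not show small differences.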
